A study of Rattus norvegicus with 8 samples.

Results

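RNA polymerase III makes transfer RNAs, the smallest ribosomal RNA and other short noncoding RNAs. It shares some of its subunits with the other nuclear RNA polymerases, and most of those particular to it carry the names Polr3a to Polr3k. Polr3c, Polr3f and 1 of the paralogs Polr3g and Polr3gl form a subcomplex that helps the enzyme to initiate, so that an enzyme holds either Polr3g or Polr3gl. Polr3gl is known from most adult tissues, and Polr3g is known above all from undifferentiated and tumour cells.

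The mRNAs of these subunits were compared between 4 male and 4 female adult rats of the Han Wistar strain RCCHanTMWIST, for which the labels give no treatment, so that the groups differ by sex. Each rat gave RNA from the kidney cortex, a mixture of tubules, glomeruli, vessels and other cells, to 1 single-colour Agilent array. Rats are numbered as in the labels (male 1 to male 4, female 1 to female 4). Probes were taken as those whose RefSeq accession belonged to 1 of 9 listed genes. Of the 9 genes, 7 had a probe (Polr3c, Polr3d, Polr3e, Polr3f, Polr3g, Polr3gl and Polr3k), among 14737 genes named on the array, and no probe carried an accession listed for the catalytic subunits Polr3a and Polr3b. The 7 genes had 11 of the 30367 different probes. All 11 were well above background on each of the 8 arrays, by the mark of the scanner software, so that none was kept through 1 sex alone, and none of their spots was marked as an outlier. The brightest probe of a gene by mean signal leads, and its other probes follow. Values are log2 signals after scaling each array to its 75th percentile, which is 0, and the sex difference is the male mean minus the female mean on this scale, that is, the log2 fold-change. Levels of different probes are not comparable, because each probe binds its target with its own strength.

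All 8 arrays lay on 1 slide, and 73.8% to 79.1% of the probes of an array were well above background. The 7 markers of proximal tubule segments 1 and 2 were well above background on all arrays, while of 5 adrenal markers Cyp11b1, Cyp11b2, Mc2r and Star were so on fewer than 4 arrays and Cyp21a1 on all 8. The sexes in the labels could not be checked on sex-linked genes, because none of the 7 sex-linked genes looked for had a named probe.

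The sequences around the starts of the paralogs and of Polr3e are shown, the paralogs because they differed in their response to sex, and Polr3e because it begins beside a gene of the kind that its own enzyme transcribes. Each is a RefSeq promoter window of 300 bases, read 5′ to 3′ along the gene's strand on build GRCr8. The annotated gene begins at base 251 of the window in Polr3g, at base 172 in Polr3gl and at base 219 in Polr3e, with bases counted from 1 at the 5′ end of the window. The windows themselves are anchored on a start at base 251, with 250 bases before it and 50 from it on. This anchor lies 79 bases after the annotated beginning of Polr3gl and 32 bases after that of Polr3e. Capitals mark the letters of motifs searched on both strands. The GC box was searched as GGGCGG and the TATA box as TATAAA. The E box was searched as CACGTG and the CCAAT box by its name's letters. An androgen response half-site was searched as TGTTCT, and the core of the B box of transfer RNA genes as GGTTCGA. The site of BCL6, the study's candidate regulator of its transporter genes, was searched as TTCCTAGAA or TTCCTCGAA.
Polr3g, chr2:13721753-13722052, minus strand: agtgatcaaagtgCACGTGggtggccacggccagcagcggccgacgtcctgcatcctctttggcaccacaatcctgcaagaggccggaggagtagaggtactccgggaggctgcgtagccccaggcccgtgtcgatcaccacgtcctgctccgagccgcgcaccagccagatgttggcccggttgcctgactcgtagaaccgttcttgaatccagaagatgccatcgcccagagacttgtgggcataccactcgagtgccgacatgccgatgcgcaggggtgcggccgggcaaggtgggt
Polr3gl, chr2:186817920-186818219, minus strand: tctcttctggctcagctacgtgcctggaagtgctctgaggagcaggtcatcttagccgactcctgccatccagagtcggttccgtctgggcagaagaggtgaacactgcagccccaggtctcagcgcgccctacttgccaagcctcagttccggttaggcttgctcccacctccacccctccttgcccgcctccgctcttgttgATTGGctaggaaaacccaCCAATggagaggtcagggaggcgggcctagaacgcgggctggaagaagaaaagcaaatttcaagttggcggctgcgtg
Polr3e, chr1:184897165-184897464, plus strand: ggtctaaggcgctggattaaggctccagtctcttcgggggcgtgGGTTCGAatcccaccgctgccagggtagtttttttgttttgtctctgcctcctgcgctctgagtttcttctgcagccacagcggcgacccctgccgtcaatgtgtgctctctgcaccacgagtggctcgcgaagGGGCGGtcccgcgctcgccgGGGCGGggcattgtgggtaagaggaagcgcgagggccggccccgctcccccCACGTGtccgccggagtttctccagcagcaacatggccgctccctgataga

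The Polr3g window held 1 E box, at base 14 and so before the gene, and 6.42% of the 33469 windows of all rat genes hold this motif. The Polr3gl window held 2 CCAAT boxes, 1 on each strand, a motif found in 37.5% of all windows. They begin at bases 205 and 223 and so lie inside the annotated gene, but before the start at base 251 on which the window is anchored. Neither paralog's window held the letters of the TATA box, the GC box or the androgen half-site, which occur in 14.2%, 33.1% and 20.7% of all windows. The BCL6 site was found neither in these windows nor in that of Polr3e, and it occurs in 0.442% of all windows. Such matches describe 1 short window and show no binding. CpG pairs numbered 24 in the Polr3g window, 14 in the Polr3gl window and 26 in the Polr3e window, against a median of 7 over all windows. In RefSeq's annotation the Polr3g window lies inside Mblac2, which is read from the opposite strand and overlaps the 5′ end of Polr3g. The Polr3e window begins inside Trnal-aag1, a leucine transfer RNA gene, and holds the letters of its B box at base 45, the element by which transfer RNA genes recruit the enzyme's initiation factors. These letters occur in 0.98% of all windows. The Polr3e window also held 2 GC boxes before the annotated gene, at bases 179 and 199. Its 1 E box lay inside the gene, at base 250 and so across the start on which the window is anchored. No probe carried the name of Trnal-aag1, so that its RNA was not measured.

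Polr3g was higher in males at each of its 3 probes, by 1.90-fold to 2.64-fold. At its brightest probe (A_64_P089816), the log2 signal was 1.86, 2.13, 1.41 and 1.90 in males 1 to 4 and 0.26, 0.54, 0.34 and 0.55 in females 1 to 4. Every male lay above every female, with a gap of 0.86 between the lowest male and the highest female. Males averaged 1.82 ± 0.30 (SD, n = 4) and females 0.42 ± 0.14 (SD, n = 4). The sex difference of 1.40 had an SE of 0.152, and its p in the limma fit over 23425 probes, adjusted by Benjamini-Hochberg, was 0.00193. An exact two-sided permutation test over the 70 assignments of the rats gave p = 0.0286, the smallest that 4 against 4 allow. The study lists Polr3g among its sex-dependent genes from these same arrays, so that this difference is not independent evidence. The study also reports Polr3g as higher in males by real-time PCR on RNA of the same rats, which was not examined here.

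At the second probe (A_64_P123931), the males had −1.53, −2.05, −2.18 and −1.86 and the females −3.16, −3.25, −3.46 and −2.93. The sexes were 0.75 apart at their closest. The sex difference was 1.30, with an SE of 0.162 and an adjusted p of 0.00327 in limma. At the dimmest probe (A_64_P089822), the males had −3.30, −3.64, −4.01 and −3.51 and the females −4.55, −4.48, −4.75 and −4.38. Here too the sexes did not overlap, and the gap was 0.37. The sex difference was 0.92, with an SE of 0.153 and an adjusted p of 0.0103 in limma, which met the adjusted p but not the 2-fold threshold of the study. Male 3 was the lowest male at all 3 probes, and without it the dimmest probe reached 1.06. The highest male was male 2 at the brightest probe and male 1 at the others.

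**Figure D1:**
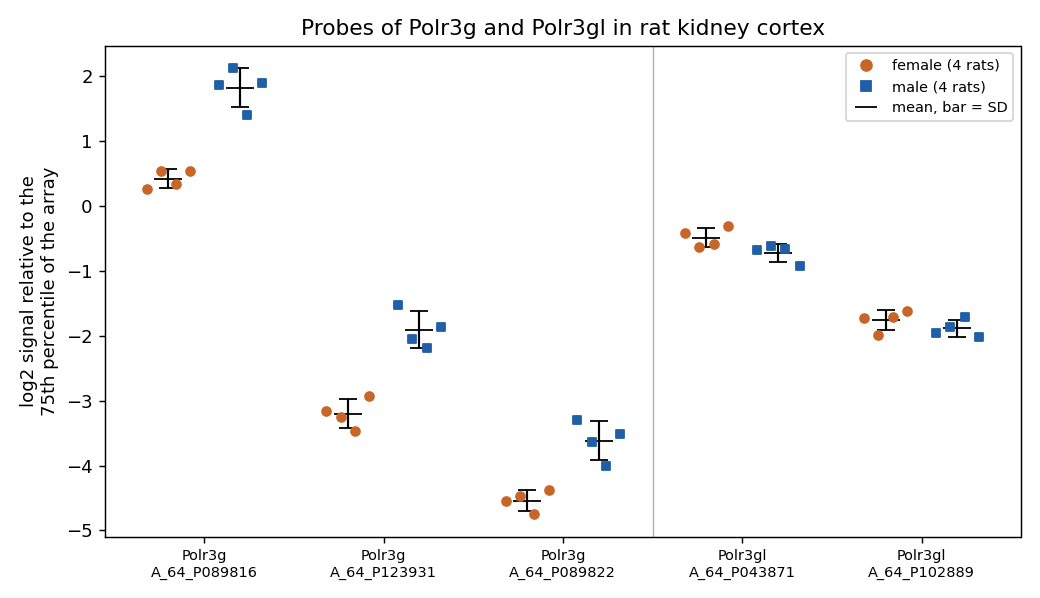
Log2 signal relative to the 75th percentile of the array (vertical axis) at the 3 probes of Polr3g and the 2 probes of Polr3gl, with 1 point per rat and the mean with SD as bars. The males lie above the females at every Polr3g probe, with gaps of 0.86, 0.75 and 0.37, and the sexes overlap at both Polr3gl probes. Heights of different probes are not comparable.

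The 3 probes of Polr3g gave unequal sizes. Within each array, the brightest probe minus the dimmest averaged 4.96 ± 0.12 (SD, n = 4) in females, whereas the males averaged 5.44 ± 0.25 (SD, n = 4). The sexes thus differed by 0.48 (SE 0.137, exact permutation p = 0.0286, or 0.0429 after Benjamini-Hochberg adjustment over the 3 pairs of probes). The second probe minus the dimmest differed by 0.37 (exact permutation p = 0.0286, adjusted 0.0429), and the brightest minus the second by 0.10 (SE 0.196, exact permutation p = 0.657). Duplicate spots on the same array had an SD of 0.059 at the brightest probe and 0.0732 at the dimmest, which is smaller than the spread between rats of a sex.

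Polr3gl, the paralog, showed a small difference in the other direction that did not pass the test. At its brightest probe (A_64_P043871), the log2 signal was −0.68, −0.61, −0.67 and −0.92 in males 1 to 4 and −0.42, −0.63, −0.58 and −0.31 in females 1 to 4. The sexes overlapped by 0.017, since female 2 lay just below male 2. The sex difference was −0.23, with an SE of 0.1, a 95% interval from −0.46 to −0.0045 and an adjusted p of 0.188 in limma. Its unadjusted p in limma was 0.0466, and the exact permutation test gave p = 0.0571. The other probe of Polr3gl (A_64_P102889) lay between −2.01 and −1.71 in males and between −1.98 and −1.61 in females. There the sex difference was −0.13, with a 95% interval from −0.36 to 0.11 and an adjusted p of 0.487 in limma. A male excess of the size found for Polr3g lay outside both intervals.

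The paralogs were then set against each other on the same array, which tests their difference itself and does not depend on how an array was scaled. The brightest Polr3g probe minus the brightest Polr3gl probe gave 2.55, 2.74, 2.07 and 2.81 in males 1 to 4 and 0.68, 1.17, 0.92 and 0.86 in females 1 to 4. The lowest male, male 3, lay well above the highest female, female 2. The mean was 2.54 ± 0.33 (SD, n = 4) in males against 0.91 ± 0.20 (SD, n = 4) in females, so that the sexes differed by 1.63 on the log2 scale (SE 0.195, exact two-sided permutation p = 0.0286). Across the 6 pairings of the 3 Polr3g probes with the 2 Polr3gl probes, which share arrays and probes, the difference lay between 1.05 and 1.63, and the sexes did not overlap in any of them.

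**Figure D2:**
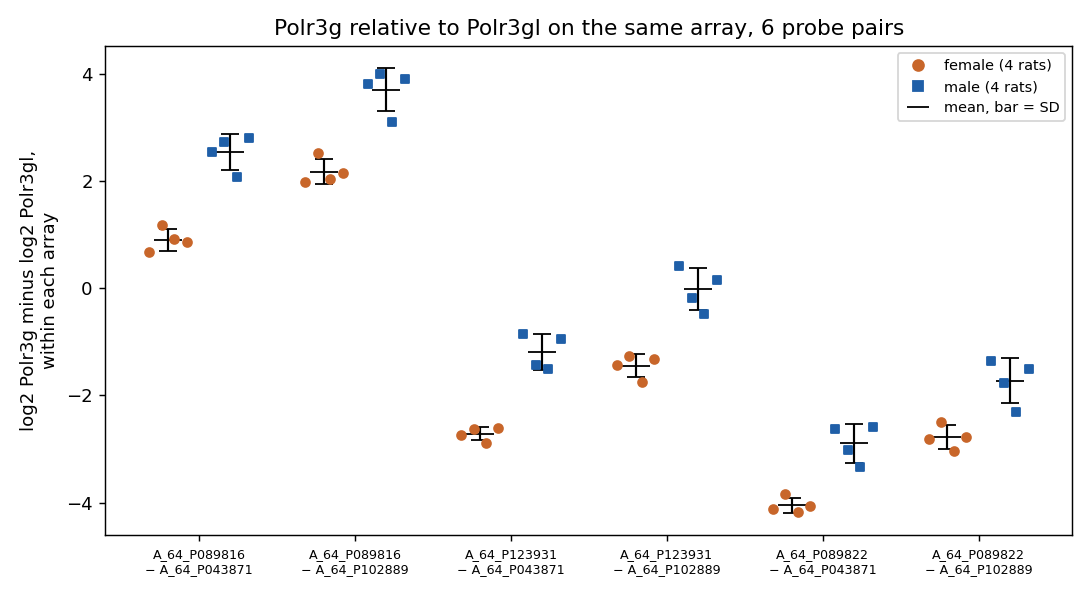
Log2 signal of a Polr3g probe minus that of a Polr3gl probe on the same array (vertical axis) for the 6 pairs of probes, with 1 point per rat and the mean with SD as bars. In every pair the 4 males lie above the 4 females, by 1.05 to 1.63 on average, while the height of a pair depends on its probes and is not comparable between pairs.

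Polr3c and Polr3f, the partners of the paralogs in the initiation subcomplex, did not pass the test. Polr3c (A_44_P513428) lay between −3.35 and −3.01 in males and between −3.46 and −3.27 in females. Male 1 alone lay among the females, and the sex difference was 0.19 (SE 0.0897, 95% interval −0.016 to 0.39, limma adjusted p = 0.229). Polr3f (A_44_P807990) lay between −3.36 and −3.13 in males and between −3.29 and −3.22 in females, and its sex difference of −0.027 (95% interval −0.19 to 0.13, limma adjusted p = 0.851) turned to 0.019 with quantile normalization. The dimmer probe of Polr3f (A_44_P370537) gave 0.085 (limma adjusted p = 0.8), and its duplicate spots lay up to 1.09 apart on 1 array, the most among the members.

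Polr3d and Polr3e pair with each other on the enzyme, where they take part in initiation and termination. Polr3d (A_44_P591437) lay between −1.67 and −1.48 in males and between −1.61 and −1.36 in females, a difference of −0.047 (95% interval −0.23 to 0.13, limma adjusted p = 0.752). Polr3e (A_44_P102774) lay between −1.53 and −1.25 in males and between −1.54 and −1.46 in females, a difference of 0.062 (95% interval −0.12 to 0.24, limma adjusted p = 0.667). For Polr3e, males 1 and 3 lay above all the females and the other males among them. Polr3k (A_44_P307964), the small subunit with which the enzyme cleaves its own transcript and terminates, lay between 0.42 and 0.69 in males and between 0.35 and 0.78 in females. Its difference of −0.012 (95% interval −0.27 to 0.24, limma adjusted p = 0.96) turned to 0.020 with array weights.

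The study asked of a called probe an adjusted p below 0.05 and a change of at least 2-fold. By this rule 2 of the 11 member probes were called, both of Polr3g and both higher in males, where 1.89% of all tested probes were called and 0.798% as higher in males. At the adjusted p alone, 3 member probes passed, all of Polr3g and higher in males, and none was lower. Of all tested probes 8.06% passed it, 3.39% as higher in males and 4.67% as higher in females. The sexes did not overlap at these 3 member probes, as they did not at 18.5% of all tested probes. At an unadjusted p below 0.05 there were 4 member probes, the fourth being the brightest of Polr3gl, where 25.6% of all tested probes passed. These 3 Polr3g probes measure 1 gene in the same rats and are not separate observations. The split of all tested probes by direction depended on the normalization. With the probes and scaling used here, the study's rule called 187 as higher in males and 256 as higher in females. With quantile normalization it called 223 and 221. The study's own counts came from another set of probes and are not these.

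The 8 probes of the other members had sex differences between −0.23 and 0.19, with a lowest adjusted p of 0.188 in limma. All 8 of their 95% intervals lay between −0.46 and 0.48, so that a 2-fold difference in either direction was outside each. The median of the brightest probes was −0.012 over the 7 members and −0.020 without Polr3g, against −0.045 over all tested probes. With quantile normalization the median over all tested probes was 0.0024. Relative to the median of the other 6 members on the same array, Polr3g stood at 3.31 ± 0.29 (SD, n = 4) in males, whereas the females had 1.91 ± 0.13 (SD, n = 4). The sexes thus differed by 1.39 (SE 0.157, exact permutation p = 0.0286).

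**Figure D3:**
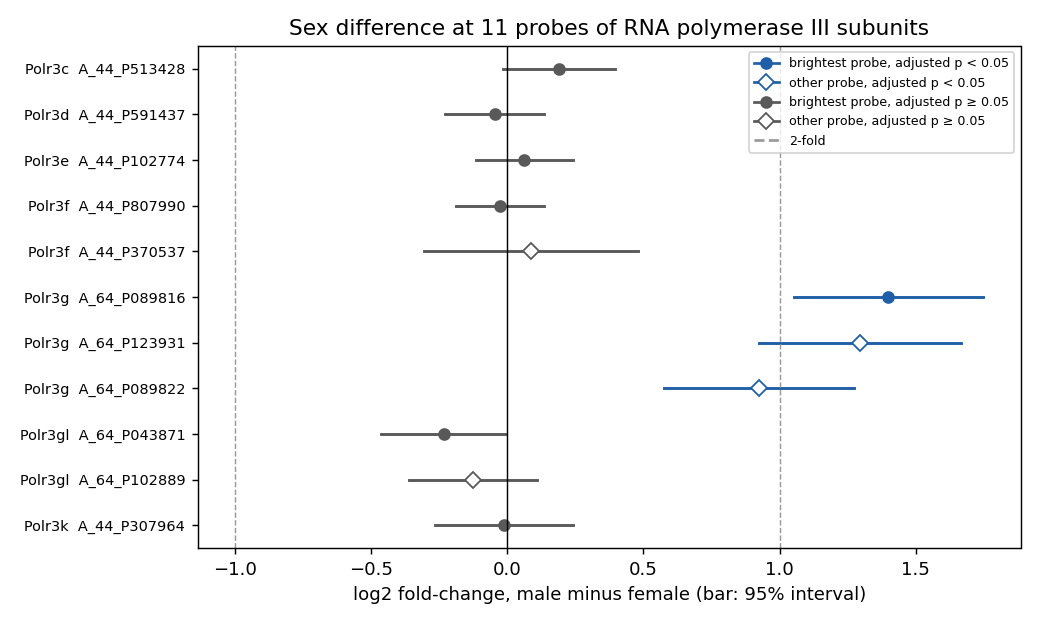
Log2 fold-change, male minus female, with its 95% interval (horizontal axis) for the 11 probes of RNA polymerase III subunits, with the brightest probe of a gene filled, other probes open and dashed lines at 2-fold. The 3 Polr3g probes lie between 0.92 and 1.40, and the other 8 between −0.23 and 0.19.

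Each of the 2 rows of the slide held 2 males and 2 females, and the sex difference of Polr3g was 1.44 in the first row and 1.36 in the second. That of Polr3gl was −0.35 and −0.11, and those of the other members lay between −0.16 and 0.33. Leaving out each rat in turn gave 1.30 to 1.54 for the brightest Polr3g probe, with adjusted p between 0.0015 and 0.00878 in limma.

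In tissue such as this, fewer cells of a type and less RNA per cell cannot be told apart. Some marker lists of kidney cells moved with sex beside Polr3g. The 6 glomerular markers were summed in multiples of the 75th percentile of the array. Their summed signal was 12.9 to 13.5 in males and 15.1 to 16.1 in females. Podxl and Ptpro were lower in males at the adjusted p, while the other 4 did not pass and reached up to 0.037. Podxl alone made up 58.4% to 64.7% of this sum. Of 4 markers of the thick ascending limb, Cldn16 was lower in males (−0.62), and Umod (−0.26), Kcnj1 (−0.34) and Ptger3 (0.40) did not pass. Their summed signal, 48.0 to 55.7 in males and 58.1 to 65.6 in females, was 95.7% to 96.9% Umod and so is close to a reading of that gene. The summed signal of 4 markers of proximal tubule segment 3 was 54.1 to 61.4 in males and 62.0 to 92.2 in females. Slc3a1 made up 54.4% to 77.9% of this sum. Slc22a13 alone passed the adjusted p, was lower in males and also met the 2-fold threshold. The sex differences of the 4 markers lay between −3.45 and −0.27, with a median of −0.66. In these 3 lists every male sum lay below every female sum, and in the other cell lists of this paragraph the sums overlapped. The sexes did not overlap at 18.5% of all single tested probes. Such a separation was not particular to cell markers. The sums of 7 subunits of RNA polymerase II were 21.4 to 22.7 in males and 23.4 to 25.5 in females. At Slc3a1 itself the sexes overlapped. The sums of the 7 markers of segments 1 and 2 overlapped, at 177 to 186 in males and 170 to 182 in females, with Slc22a6 higher and Cubn lower in males. The lists of distal convoluted tubule, collecting duct, endothelium, immune cells, red blood cells, adipose tissue and adrenal gland held no gene at an adjusted p below 0.05 in limma. Their median sex differences were not all near 0, at −0.96 over 4 adipose and 0.43 over 5 immune markers, against −0.19 over the glomerular markers. For the adrenal gland only 1 gene was tested, and for the distal convoluted tubule only 2. The part of these cells in the difference of Polr3g was not tested.

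Markers of dividing and undifferentiated cells were read beside Polr3g as well. Of 5 tested markers of dividing cells (Aurkb, Birc5, Bub1, Ccnb1 and Cdk1), none passed the adjusted p in limma, and their sex differences lay between 0.062 and 0.72. Their summed signal was 0.425 to 1.09 in males and 0.406 to 0.572 in females. Male 3, the lowest male for Polr3g, was the highest male for all 5 of them. Of the 6 markers of pluripotent and germ cells, Nanog, Ddx4 and Dazl did not reach the 4 arrays well above background that a test required. Lin28a, Pou5f1 and Sox2 had sex differences of −0.013, 0.068 and 0.63 and did not pass the test.

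The measured neighbours of the paralogs did not pass the test. Mblac2, which overlaps the 5′ end of Polr3g on the other strand, averaged −4.01 ± 0.23 (SD, n = 4) in males against a female mean of −3.88 ± 0.18 (SD, n = 4), a difference of −0.13 (limma adjusted p = 0.586). On the same arrays, Polr3g minus Mblac2 differed between the sexes by 1.53 (SE 0.217, exact permutation p = 0.0286). This contrast was chosen after its values were seen. It largely restates the difference of Polr3g, because Mblac2 differed little, and adds no separate evidence. Lysmd3, on the other side of Polr3g, gave 0.058 (limma adjusted p = 0.707), and Cetn3 had no named probe. Next to Polr3gl, Txnip gave −0.36 (limma adjusted p = 0.276) and Ankrd34a −0.15 (limma adjusted p = 0.691). Beside Polr3e, where neighbours were added after values were seen, Eef2k was lower in males, at −0.46 (limma adjusted p = 0.0245), and Cdr2 gave −0.27 (limma adjusted p = 0.154).

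The other subunits of the enzyme, most of them shared with RNA polymerases I or II, held no gene that passed the test. Of 9 such genes 8 were tested, with sex differences between −0.22 and 0.12 and a median of −0.15.

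Of 18 factors that place the enzyme on its genes, 16 were tested and 2 passed the adjusted p, 1 in each direction, with a median of 0.025. Over the 5 pathway lists described here 3 of 49 tested genes passed (6.12%), where 8.06% of all tested probes did, so that the share in the lists is not above that of the array. Gtf3a, the factor TFIIIA that serves the genes of the smallest ribosomal RNA, was −0.15, −0.14, −0.10 and −0.24 in males 1 to 4 and −0.58, −0.64, −0.52 and −0.62 in females 1 to 4. Every male lay above every female, and the difference of 0.43 (SE 0.0645, limma adjusted p = 0.007) corresponds to 1.35-fold. It passed the adjusted p in each of the 19 alternative settings, at 0.41 to 0.46.

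Snapc2, a subunit of the complex that recognises small nuclear RNA genes, was −4.63, −4.62, −4.78 and −4.67 in males and −4.00, −4.27, −4.35 and −4.38 in females. All males lay below all females, and the difference was −0.42 (SE 0.0962, limma adjusted p = 0.0352). Without female 2, female 3 or any 1 of the 4 males the adjusted p lay between 0.0596 and 0.084, and over all 19 alternatives between 0.0302 and 0.084. The other tested factors, among them Brf2, Tbp, the other subunits of that complex and those of TFIIIC, did not pass. Brf1 and Bdp1, the other parts of TFIIIB, had no named probe.

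Of 13 regulators, with the RNA chaperone Ssb counted among them, 12 were tested and none passed, with a median of −0.072. Maf1, the repressor of the enzyme, gave −0.059 (limma adjusted p = 0.716). Myc, an activator, gave −0.12 (limma adjusted p = 0.577). Mtor, the kinase that keeps Maf1 inactive, gave 0.35 with sexes that did not overlap and an adjusted p of 0.0506 in limma. Over 19 alternatives this p lay between 0.0332 and 0.128, and in 12 of them it stayed above 0.05. It was below 0.05 with quantile normalization (0.0332), in the authors' log2 values (0.0367) and with normexp (0.049). The same held with the filter on all arrays, the other prior, array weights and without female 4 (0.0404).

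Among 6 subunits particular to RNA polymerase I, 1 passed. Polr1g was −1.82, −1.97, −2.13 and −1.91 in males and −1.56, −1.50, −1.64 and −1.60 in females. The males lay below the females without overlap, and the difference was −0.38 (SE 0.0815, limma adjusted p = 0.0275). Its other probe gave −0.35, a like size, and did not pass (limma adjusted p = 0.139). Without any 1 of the females, male 2 or male 4 the brighter probe had an adjusted p between 0.0532 and 0.0762, and over 19 alternatives between 0.018 and 0.0762. Of 7 tested subunits particular to RNA polymerase II none passed, with differences between −0.25 and 0.090. None of the genes of these lists met the 2-fold threshold.

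**Figure D4:**
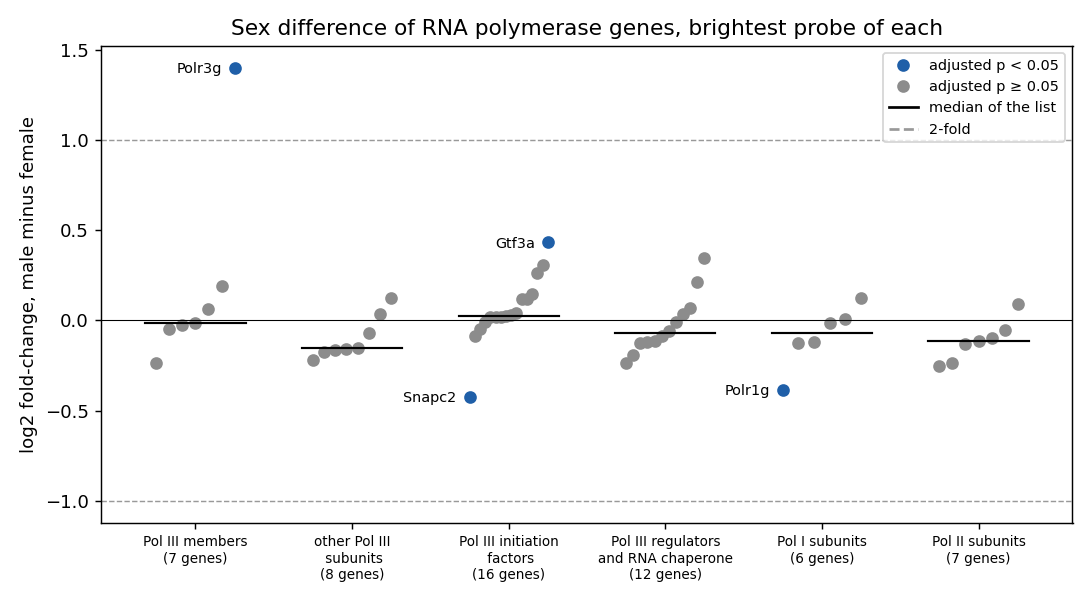
Log2 fold-change, male minus female (vertical axis), of the brightest probe of each tested gene, by list, with the median of each list as a bar and dashed lines at 2-fold. Polr3g stands at 1.40, and Gtf3a (0.43), Snapc2 (−0.42) and Polr1g (−0.38) are the other genes shown that passed the adjusted p.

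The genes whose values over the 8 rats were most like those of Polr3g were sought among 11823 named genes with a value on every array. Likeness was the root mean square difference between log2 values, each probe centred on its own mean. The nearest was Gas2, an actin-associated protein named for growth arrest, at 0.157, followed by Gabbr2, a subunit of the GABA-B receptor, at 0.167. Nabp1, a protein that binds single-stranded DNA, followed at 0.195, Frmpd1, a scaffold protein, at 0.197, and Hoxd4, a homeobox transcription factor, at 0.199. Being chosen for likeness, all 5 were higher in males, by 1.12 to 1.43, and Frmpd1 was 0.89 with another background correction (normexp). The choice also favours genes that are low in male 3, as the Polr3g probes were. In Gas2, Gabbr2, Nabp1 and Frmpd1 male 3 was the lowest male, and in Hoxd4 the lowest was male 4. Of the other members, Polr3c ranked nearest, at place 1860, and Polr3gl farthest, at place 9383, with differences of 0.660 and 0.851.

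**Figure D5:**
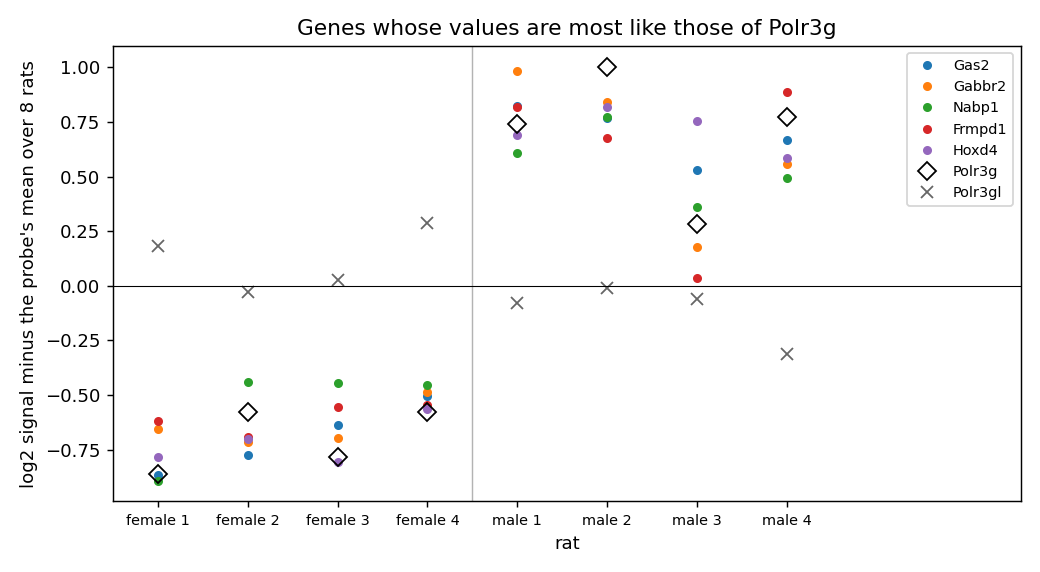
Log2 signal minus the probe's mean over the 8 rats (vertical axis) for each rat (horizontal axis), for Polr3g, the 5 genes most like it and Polr3gl, at the brightest probe of each gene. The 5 genes follow Polr3g within 0.157 to 0.199 (root mean square), since they were chosen for it, and Polr3gl lies on the other side of 0 from Polr3g in every rat but female 2.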

How the data were processed

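Cortical RNA of each rat (200 ng), carrying the dye Cy3, was measured on 1 array. The deposited scanner files hold spot intensities made by the authors with Agilent Feature Extraction 10.7.3.1, which subtracted background and detrended each array, without normalization between arrays. A further table deposited by the authors holds log2 values with the same distribution on all arrays and served as an alternative. The submitters' processing notes name limma 3.8.2.

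Spots marked as outliers were removed, intensities were scaled to the 75th percentile of their array's non-control spots on the log2 scale, and replicate spots were averaged per probe. Tested were 23425 probes for which most spots were well above background on 4 or more arrays. The sexes were compared with limma 3.58.1 (lmFit, eBayes, no covariates) in R 4.3.3, with Benjamini-Hochberg adjustment, after the procedure had been tested on simulated data. Single contrasts used exact two-sided permutation tests. Probes were named through RefSeq accessions (17514 probes matched), and names, neighbours and sequences come from RefSeq's GRCr8 annotation, while the array was designed on an older build. With 4 arrays per sex, precision is limited by their number. No spot was saturated.

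The members and gene lists were chosen with earlier results of these data known. Named were the members, genes of the pathway lists at an adjusted p below 0.05, the neighbours of the paralogs and the 5 genes most like Polr3g. Other list genes given with values, the contrast with Mblac2 and the neighbours of Polr3e were chosen after their values were seen. Alternatives were other normalizations, background correction, filters, weights, blocks and leaving out each rat.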

Additional observations from a re-analysis of the deposited data

Results flagged for a closer look

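The highest and the lowest rat of each sex were set against the other rats by Dixon's criterion at the 11 member probes, which makes 22 groups of 4 rats. Chance meets this criterion in about 1 in 20 groups, and a single group met it. Polr3d was −1.67 in male 3, while the other males lay between −1.51 and −1.48.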

How the results depend on the processing

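The brightest Polr3g probe met both thresholds in all 19 alternative settings of the fit, and with the dimmest probe in its place the difference was 0.92, under 2-fold. Over these settings 2 or 3 member probes were called, 3 passed the adjusted p, and 334 to 495 of all tested probes were called. The adjusted p of Polr3gl stayed above 0.05 in each, at 0.144 to 0.344. Differences near 0 changed direction. Polr3f was 0.019 with quantile normalization, 0.020 in the authors' log2 values and −0.075 to 0.0018 with each rat left out. Polr3k was 0.020 with array weights and −0.082 to 0.062 with each rat left out, and the dimmer Polr3f probe was −0.065 to 0.21. Whether replicate numbers pair the rats was not settled. Deviations of same-numbered rats correlated at −0.0083 to 0.126, and those of differently numbered rats at −0.193 to 0.118. The largest value was that of female 1 with male 1, but not every rat correlated best with its own number. With the replicate number as a block, 372 probes were called. The brightest Polr3g probe then had an SE of 0.113, against 0.152 without the block, and a limma adjusted p of 0.0114. Polr3g minus Polr3gl stayed at 1.63 and Polr3g minus the other members at 1.39, where the exact p was 0.125, the smallest this block allows. The same values had exact p = 0.0556 with the slide row as a block and 0.125 with the slide column, which was chosen after seeing the data, and both are the smallest possible. With each rat left out, these contrasts were 1.54 to 1.79 and 1.28 to 1.51. Filters, the prior and array weights do not enter these contrasts and were not run for them.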
